A study of Mus musculus with 12 samples.

Results

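The genes described here are 10 members of the EGF, HGF and FGF receptor systems of the liver, out of 26301 genes in the count matrix of the series. They were chosen by name, through the Entrez ID that maps to each symbol, and by a rule that uses no measured value, with earlier results of these data known. All 10 had a row, and all 10 were among the 13882 genes that passed the filter on low counts and were tested. The set holds the EGF receptor family members Egfr, Erbb2 and Erbb3, the HGF receptor Met, the FGF receptors Fgfr1, Fgfr2, Fgfr3 and Fgfr4, the coreceptor Klb (beta-Klotho) and 1 ligand, Hgf. It is therefore a set of signaling genes rather than of receptors alone, and Erbb2 and Fgfr1 were low in these livers, as given below.

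RNA was sequenced from 12 mouse libraries, 4 per group. The control group comprised livers from adult mice that the labels call wild-type. The group labelled DKO comprised spontaneous liver tumors from adult Alb-Cre mice with E2f7 and E2f8 knocked out, and the group labelled TKO comprised spontaneous liver tumors from adult Alb-Cre mice with Rb1, E2f7 and E2f8 knocked out. Alb-Cre places the Cre recombinase under the albumin promoter, so that the floxed genes are deleted in hepatocytes and other cells of the tissue keep them. The mice were bred into the FVB strain and were followed in an end-of-life study, and the series gives the controls as age-matched. The study used 4 livers per condition. The labels give each library as a separate liver or tumor and name no animal, and they carry letter-and-number codes whose meaning the sources do not give and which were not used, so the p-values measure the spread between these samples. Tumor and genotype go together in this design, and their effects cannot be told apart.

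Signaling through these receptors follows a common plan. A ligand brings receptor chains together, their kinase domains phosphorylate one another, and adaptor proteins pass the signal to RAS and the ERK kinases, which in turn induce inhibitors that dampen the receptor. In the liver, EGFR and MET drive hepatocyte proliferation and survival after injury, and HGF reaches hepatocytes from stellate and endothelial cells. FGFR4 with beta-Klotho receives the intestinal hormone FGF15 and lowers bile acid synthesis, while beta-Klotho is also needed for the response to FGF21. ERBB2 and ERBB3 work as a pair, since ERBB3 has little kinase activity of its own and ERBB2 binds no ligand of its own.

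Positions are given in mm9, the build of the counts. Egfr (Entrez 13649) lies at chr11:16652206-16818161 on the plus strand, Erbb2 (13866) at chr11:98273784-98299030 on the plus strand, and Erbb3 (13867) at chr10:128004579-128026708 on the minus strand. Met (17295) lies at chr6:17413800-17523980 and its ligand gene Hgf (15234) at chr5:16059368-16125257, both on the plus strand. The FGF receptor genes are Fgfr1 (14182) at chr8:26624126-26686186 on the plus strand, Fgfr2 (14183) at chr7:137305965-140315033 on the minus strand, Fgfr3 (14184) at chr5:34064373-34079716 on the plus strand, and Fgfr4 (14186) at chr13:55254001-55270120 on the plus strand. Klb (83379) lies at chr5:65739625-65775242 on the plus strand. The Fgfr2 model of GENCODE vM1 includes a transcript that runs into Ctbp2, and 314 exon bases (4.03% of the Fgfr2 exons) are shared with that gene on the same strand. Exons of Fgfr1 share 125 bases (1.55%) with Gm16159 and exons of Erbb2 share 9 bases with 1810046J19Rik, both antisense. The strand setting of the counting is not given in the sources used here, so reads in these shared bases cannot be assigned.

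Promoter sequences are shown for Met, which varied least between libraries, and for Egfr and Hgf, which varied widely. Each window runs from 250 bases before to 50 bases after a RefSeq start in GRCm38.p6, a later build than that of the counts. The sequences are printed 5′ to 3′ in the direction of transcription, with every CG dinucleotide in capitals. The Met window, at chr6:17463707-17464006, held 34 CG dinucleotides, and 92.3% of the 32851 windows of the same length held fewer. The Egfr window, at chr11:16751953-16752252, held 15, and 65.4% of windows held fewer. Of the pair of Hgf windows, the one printed, at chr5:16553651-16553950, held 6, and 43.6% of windows held fewer, against a median of 7 over all windows.
Met: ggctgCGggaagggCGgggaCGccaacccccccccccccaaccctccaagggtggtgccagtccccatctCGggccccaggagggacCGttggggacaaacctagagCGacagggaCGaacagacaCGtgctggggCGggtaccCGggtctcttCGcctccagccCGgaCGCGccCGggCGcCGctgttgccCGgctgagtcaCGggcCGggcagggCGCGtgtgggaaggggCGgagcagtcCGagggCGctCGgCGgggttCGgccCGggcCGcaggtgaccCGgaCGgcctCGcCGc
Egfr: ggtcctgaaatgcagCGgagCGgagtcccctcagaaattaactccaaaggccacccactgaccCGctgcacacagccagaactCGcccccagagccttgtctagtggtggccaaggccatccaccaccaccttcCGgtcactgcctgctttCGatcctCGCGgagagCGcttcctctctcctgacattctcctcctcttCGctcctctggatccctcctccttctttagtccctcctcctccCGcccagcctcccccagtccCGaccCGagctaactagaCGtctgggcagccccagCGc
Hgf: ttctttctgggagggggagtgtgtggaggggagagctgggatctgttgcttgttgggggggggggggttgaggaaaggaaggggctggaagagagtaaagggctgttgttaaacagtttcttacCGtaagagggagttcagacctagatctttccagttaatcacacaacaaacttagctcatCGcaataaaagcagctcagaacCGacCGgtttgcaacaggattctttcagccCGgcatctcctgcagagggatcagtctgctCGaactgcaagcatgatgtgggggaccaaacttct

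In all, 8 of the 10 genes matched the promoter table, with 10 windows. The single Fgfr2 window in the table held 4 CG dinucleotides, and 31.4% of windows held fewer. Because the deleted genes encode E2F factors, the windows were also searched on both strands for the E2F-type letters TTTCCCGC, TTTCGCGC, TTTGGCGC and TTTGCCGC. These letters were in 0 of the 10 windows and in 2.26% of all windows, which says only that they do not occur in these 300 bases.

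Total counts ranged from 9165812 to 16424973 per library, and albumin transcripts took 4.82% to 22.7% of them, so every library held hepatocyte RNA. Xist was at 0.0711 to 0.46 CPM (counts relative to the scaled library size) and the Y-linked gene Ddx3y at 47.9 to 81.2 CPM, the pattern of male tissue in all 12 libraries. Rb1 was lower in the 4 libraries labelled TKO (3.21 to 5.47 CPM) than in the other 8 (6.52 to 11.3 CPM). E2f7 was low in every group, at 0.236 to 1.84 CPM, and E2f8 was at 7.59 to 52.2 CPM in the tumors against 4.52 to 8.97 CPM in the controls. These counts cover the whole gene and the sources used here do not name the deleted exons, so the E2f7 and E2f8 counts do not check the deletions, and DKO and TKO below are the names of the labels. In a principal component analysis of all tested genes, TKO 3 lay among the controls on the first component (-45.4, with controls from -63.4 to -16.9 and the other tumors from 11.5 to 47.2). DKO 4 and TKO 4 lay high on the second component (36 and 55.6) and had the least Cps1, the first enzyme of the urea cycle (810 and 453 CPM, against 1920 to 4730 in the other libraries).

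The levels of the 10 genes in the control livers covered a wide range. Per kilobase of exon (RPKM, which divides CPM by exon length), Egfr was the highest at 34.4 ± 20.4 (SD, n = 4). It was followed by Erbb3 at 17.4 ± 5.48, Fgfr4 at 17.4 ± 2.04, Klb at 16.6 ± 6.75 and Met at 14.6 ± 1.3 RPKM, and the ranges of each neighboring pair from Egfr to Met overlapped. A gap separated these from Fgfr2 at 5.02 ± 1.23, Hgf at 4.75 ± 0.492 and Fgfr3 at 3.78 ± 0.485 RPKM, since the lowest value above it was 8.96 RPKM (Klb) and the highest below it 6.68 RPKM (Fgfr2). Fgfr1 at 0.901 ± 0.388 and Erbb2 at 0.324 ± 0.0872 RPKM were the lowest, and their ranges overlapped as well. When length was taken from the longest transcript instead of all exons, Fgfr3 (6.16 RPKM) stood above Hgf (4.75 RPKM). On that length the Fgfr2 mean in the controls was 8.84 RPKM. Single control values of Fgfr2 and Klb then overlapped, and the gap held only between the means (16.6 RPKM for Klb and for Met). With length over all exons, the group means of the tumors kept the gap, with 12.1 RPKM for Klb in TKO above it and 4.58 RPKM for Fgfr3 in TKO below it. Single tumors did not keep the gap of the controls. Klb in DKO 2 lay below it at 6.12 RPKM. Klb in TKO 1 (7.08 RPKM), Fgfr2 in DKO 1 (7.65 RPKM), Fgfr3 in TKO 2 (6.87 RPKM) and Egfr in TKO 4 (8.48 RPKM) lay within it. Other values reached 0.295 RPKM (Fgfr2, DKO 4), 0.428 RPKM (Hgf, DKO 4) and 0.861 RPKM (Fgfr2, TKO 4).

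**Figure D1:**
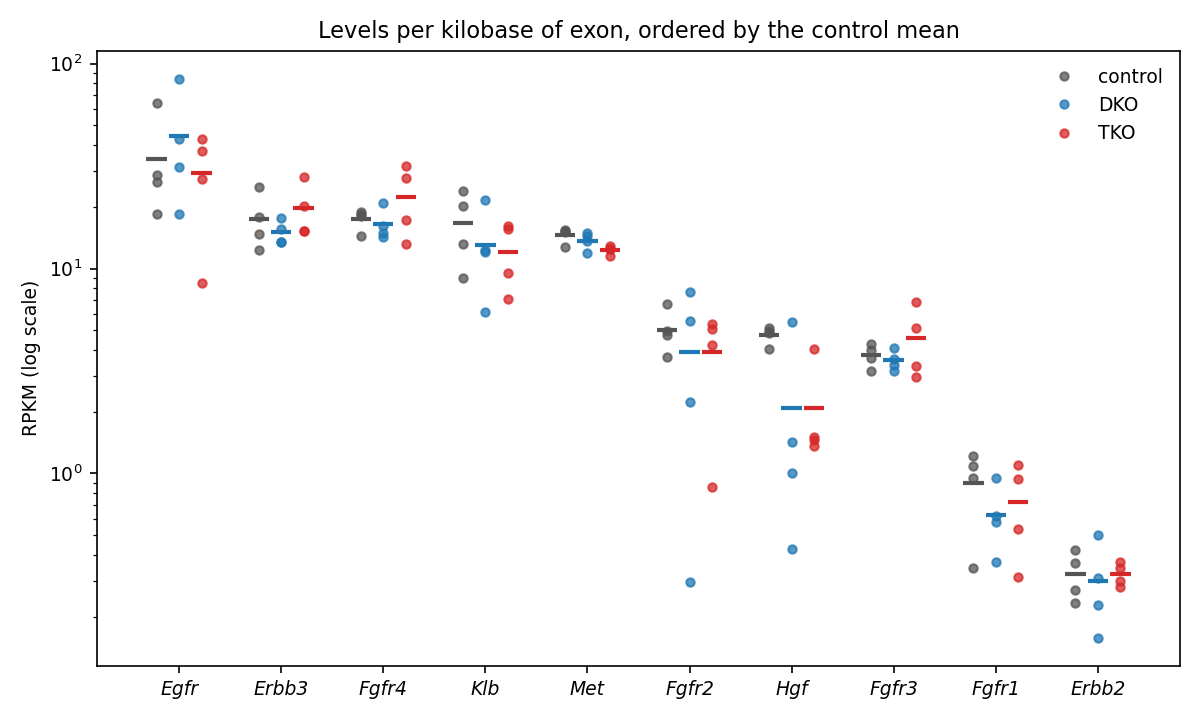
RPKM on a log scale for the 10 genes, ordered by the control mean, with a point per library in gray (control), blue (DKO) and red (TKO) and a bar at each group mean. Egfr is highest and Erbb2 lowest in the control means, and the low blue points of Fgfr2 (0.295 RPKM) and Hgf (0.428 RPKM) are both DKO 4.

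No receptor gene, nor Hgf, passed the test in any comparison of tumors with controls or between tumor genotypes. In the libraries labelled DKO against the controls, 0 of 10 passed an adjusted p of 0.05 (edgeR, quasi-likelihood test, Benjamini-Hochberg adjustment), beside 2.42% of all tested genes. In TKO against control the count was 0 of 10 beside 0.0864% of all genes, and in TKO against DKO it was 0 of 10 beside 0% of all genes. For the mean of both tumor groups against the controls it was 0 of 10 beside 2.48%. DESeq2 also called 0 of 10 in each of these, where it called 1518, 507, 56 and 1422 genes in all (10.4%, 3.49%, 0.398% and 9.49% of those it tested). At an unadjusted p under 0.05, edgeR listed 0, 0, 0 and 1 of the 10, beside 24%, 16.3%, 9% and 23% of all genes. The 1 gene was Hgf in all tumors against control. No gene of the 10 had groups that did not overlap, beside 16.2%, 7.67%, 4.87% and 3.66% of all genes.

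The fitted changes were small for most of the 10. Their median log2 fold change was -0.16 in DKO, -0.24 in TKO and 0.05 between TKO and DKO, where the medians over all tested genes were 0.02, 0.02 and 0.01. DKO and TKO were compared with the same 4 controls, so these values are not independent of each other. The spread between libraries of a group differed widely among the 10. The SD of log2 CPM around the group means was 1.41 for Fgfr2, 0.954 for Hgf and 0.923 for Egfr, larger than in 98.4%, 92.9% and 92.2% of the tested genes. For Met it was 0.12, and 1.92% of tested genes were steadier, while the median over all tested genes was 0.331. Fgfr3, Erbb3 and Fgfr4 lay near the middle, with 53.7%, 55.8% and 58.5% of tested genes steadier, and the shares for Erbb2, Klb and Fgfr1 were 65.2%, 82.5% and 86.1%.

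**Figure D2:**
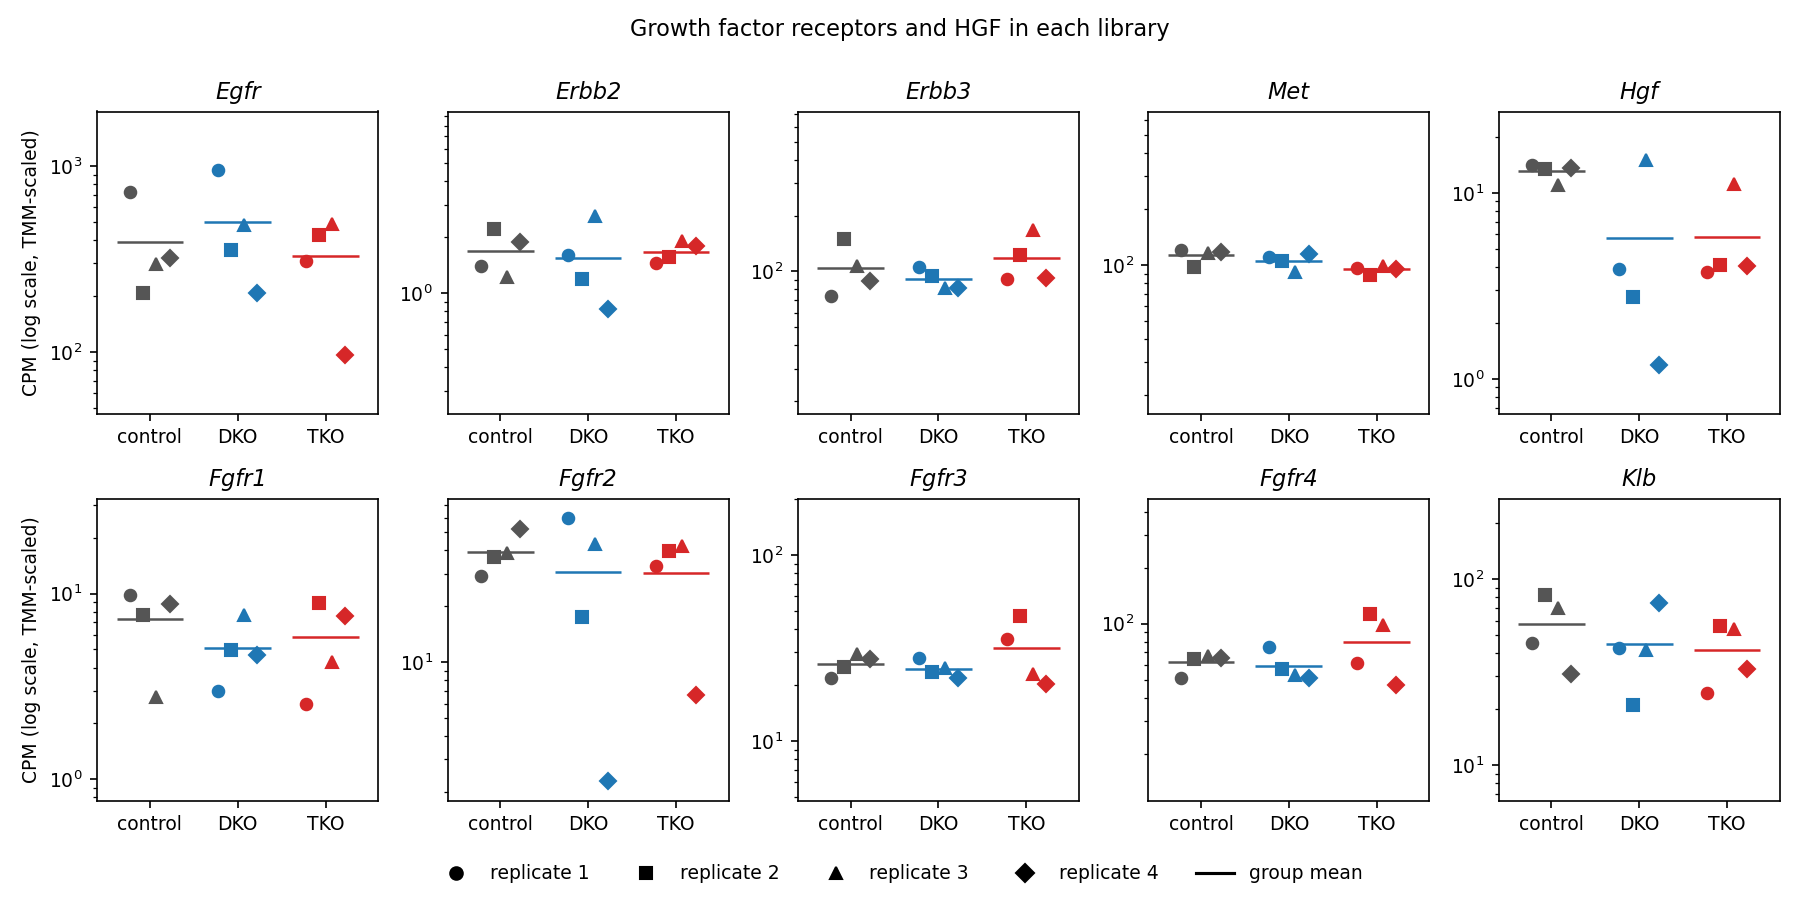
CPM on a log scale in each of the 12 libraries for the 10 genes, with the replicate number as the symbol, the group as the color and the group mean as a line. Every panel spans the same number of log units, so that the flat row of Met (88.6 to 120 CPM) can be set against Fgfr2 (2.3 to 59.6 CPM) and Hgf (1.18 to 15.1 CPM).

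**Figure D3:**
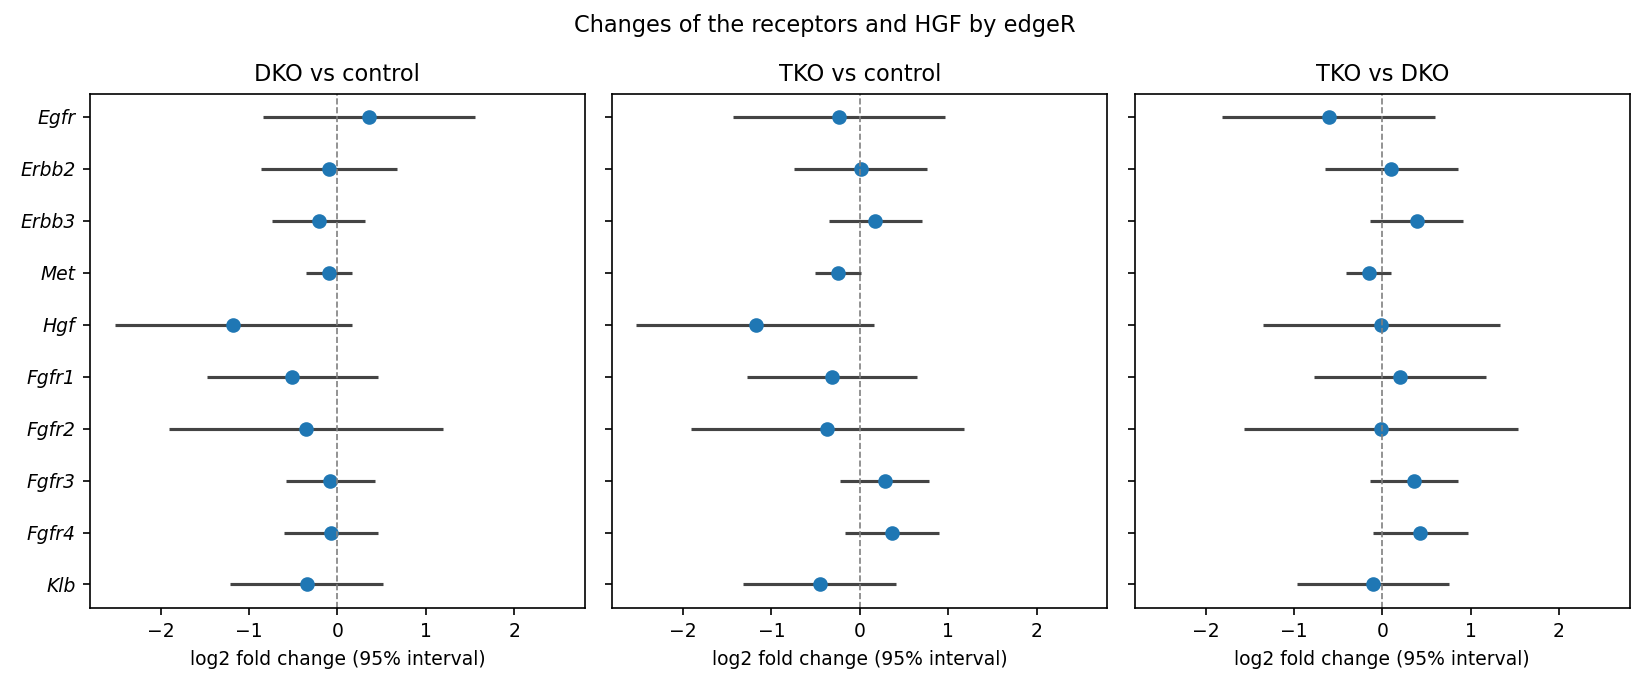
Log2 fold changes of the 10 genes with their 95% intervals in DKO against control, TKO against control and TKO against DKO. The intervals of all 10 genes include 0 in the 3 panels, and those of Hgf and Fgfr2 are the widest while that of Met is the narrowest.

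Of the EGF receptor family, Egfr varied most. The controls held 729, 209, 298 and 322 CPM of Egfr, the tumors labelled DKO 956, 355, 485 and 208 CPM, and those labelled TKO 310, 425, 488 and 96 CPM. The highest value, in DKO 1, was 9.95 times the lowest, in TKO 4, and both tumor groups spread across the range of the controls. The log2 fold change was 0.36 in DKO (95% interval -0.84 to 1.56, adjusted p = 0.725 by edgeR), -0.24 in TKO (-1.44 to 0.96, adjusted p = 0.875) and -0.60 in TKO against DKO (-1.81 to 0.60, adjusted p = 0.761). With intervals this wide, these samples do not exclude a change of Egfr in either direction within them. Per length, Egfr made up 62.6% ± 17.1 (SD, n = 4) of the summed Egfr, Erbb2 and Erbb3 level in the controls, 70.4% ± 10.9 in DKO and 56% ± 14 in TKO. In TKO 4 its share was 35.2%, the lowest of all libraries, and Erbb3 made up 63.4% there.

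Erbb3, the partner chain that couples to PI3-kinase, stood at 74.2, 150, 107 and 88.5 CPM in the controls. The DKO tumors held 106, 94, 81.2 and 81.1 CPM and the TKO tumors 91.2, 122, 168 and 91.8 CPM. The groups overlapped, with TKO 3 the only library above all controls. The log2 fold change was -0.21 (-0.74 to 0.31) in DKO and 0.17 (-0.35 to 0.70) in TKO, with adjusted p = 0.629 and 0.775 by edgeR. Erbb2, the chain without a ligand of its own, was counted 14 to 44 times per library, or 0.825 to 2.6 CPM. Its group means were 1.69 ± 0.454 CPM in the controls, 1.56 ± 0.768 in DKO and 1.68 ± 0.213 in TKO, and the intervals of its log2 fold change were -0.86 to 0.67 in DKO and -0.75 to 0.76 in TKO. The fourth family member, Erbb4, was counted at most 12 times in any library and did not pass the filter.

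Met was the steadiest of the set. The controls held 120, 98.1, 116 and 118 CPM of Met, the DKO tumors 111, 105, 91.8 and 115 CPM, and the TKO tumors 96.8, 88.6, 99.3 and 95.6 CPM. The TKO values lay below 3 of the 4 controls, and only control 2 fell among them. The log2 fold change was -0.25 in TKO (SE 0.118, 95% interval -0.51 to 0.01, adjusted p = 0.322 by edgeR) and -0.09 in DKO (-0.35 to 0.16, adjusted p = 0.661). Over all tumors it was -0.17 (-0.39 to 0.05, adjusted p = 0.34). These were the narrowest intervals of the 10 genes.

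Hgf, the ligand of MET, had the lowest fitted change of the 10 in DKO, in TKO and over all tumors. The 4 controls lay close together at 14.2, 13.4, 11.1 and 13.7 CPM, while the DKO tumors held 3.91, 2.77, 15.1 and 1.18 CPM and the TKO tumors 3.74, 4.12, 11.2 and 4.03 CPM. Thus 6 of the 8 tumors lay below every control, and DKO 3 and TKO 3 were at control level. The counts behind these values were 109 to 191 in the controls and 20 to 256 in the tumors. The log2 fold change was -1.18 in DKO (SE 0.616, 95% interval -2.52 to 0.16, adjusted p = 0.266 by edgeR) and -1.18 in TKO (SE 0.618, -2.53 to 0.16, adjusted p = 0.368). Over all tumors it was -1.18 (SE 0.512, -2.29 to -0.07, unadjusted p = 0.0391, adjusted p = 0.191).

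With all 12 libraries, Hgf passed by limma voom with weights on samples (adjusted p = 0.0472 in DKO and 0.0303 over all tumors). By edgeR, a single library decided whether Hgf passed. Without DKO 3 the log2 fold change was -2.33 in DKO (adjusted p = 0.0328 by edgeR) and -1.76 over all tumors (adjusted p = 0.0346), and the adjusted p over the 12 fits that left out 1 library ranged from 0.0328 to 0.46 in DKO and from 0.0346 to 0.338 over all tumors. Without TKO 3, which lay among the controls on the first principal component, the change was -1.72 in TKO (adjusted p = 0.176) and -1.45 over all tumors (adjusted p = 0.095). Per length, Met exceeded Hgf 3.11 ± 0.459 times in the controls, 15.2 ± 13.9 times in DKO and 7.14 ± 2.73 times in TKO, with values of 2.16 in DKO 3 and 3.16 in TKO 3.

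The same libraries stood out for markers of stellate cells and fibroblasts, the collagen-producing cells of the liver that also make HGF. In bulk RNA, fewer cells of a type and less RNA per cell cannot be told apart. The summed level of the 10 markers was 346 to 510 CPM in the controls and 724 CPM in DKO 3 and 561 CPM in TKO 3. The other DKO tumors held 201 to 265 CPM, and the other TKO tumors 249, 312 and 361 CPM. None of the 10 markers was at 0 in any library, and 0 of 10 passed the test in DKO, TKO or all tumors (lowest adjusted p = 0.255 by edgeR, in DKO, with 0 at an unadjusted p under 0.05 and 0 by DESeq2). Not every marker followed Hgf. Dcn, which encodes the matrix proteoglycan decorin, was at 168 to 210 CPM in the controls, 299 in DKO 3, 194 in TKO 3 and 59.7 to 135 in the other tumors. Lrat, the retinol-storing enzyme of stellate cells, was at 39.1 CPM in DKO 3 and 2.06 CPM in DKO 4, against 11.1 to 25.9 CPM in the controls, whereas Pdgfrb was at 14.7 CPM in DKO 4 and 19.5 CPM in TKO 4, above all 4 controls. DKO 3 and TKO 3 also had the highest sums in their groups for endothelial markers (225 and 323 CPM, both above every control), macrophage markers (416 and 562 CPM, with controls from 191 to 514 CPM) and lymphocyte and neutrophil markers (34.7 and 23.9 CPM, with controls from 12.8 to 32 CPM). The part of the content of any of these cell types in the Hgf values was not tested.

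**Figure D4:**
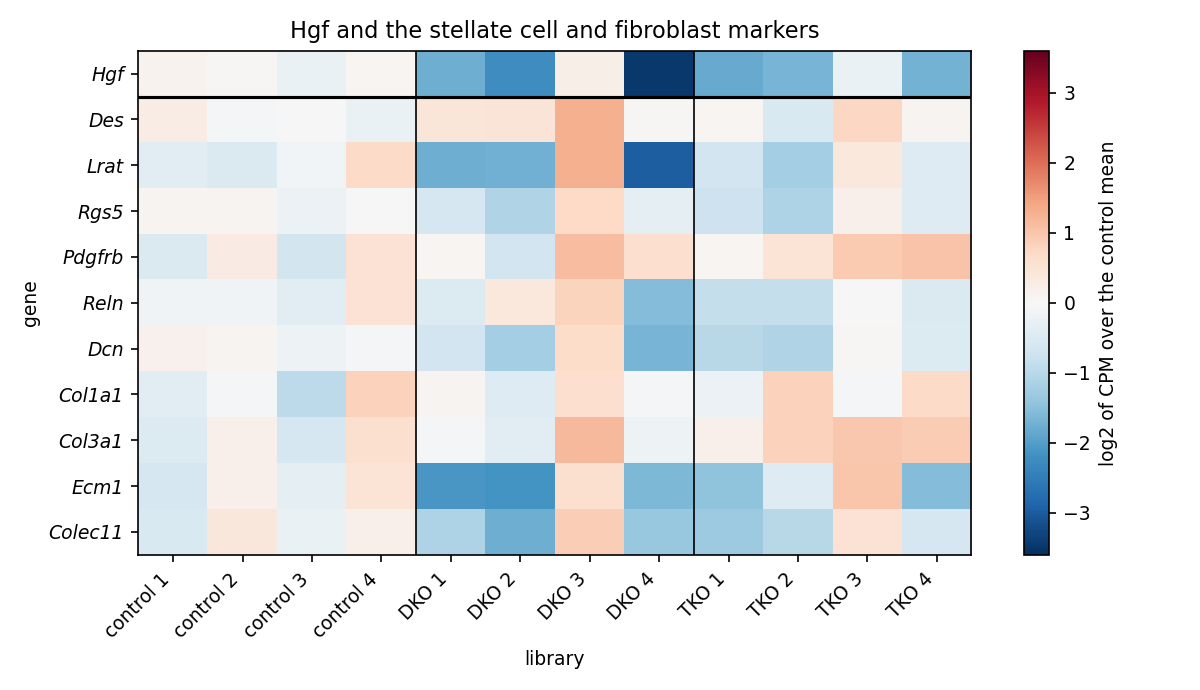
Log2 of CPM over the control mean for Hgf (top row) and 10 stellate cell and fibroblast markers (rows) in the 12 libraries (columns), from blue (lower) to red (higher). DKO 3 is at or above the control mean in Hgf and in all 10 markers, and DKO 4 shows the lowest Hgf and Lrat.

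Fgfr4, the main FGF receptor of hepatocytes, made up 64.3% ± 2.35 (SD, n = 4) of the summed FGF receptor level per length in the controls, 68.2% ± 8.28 in DKO and 70.7% ± 4.87 in TKO. The controls held 51.2, 64.1, 66.8 and 65.7 CPM of Fgfr4, the DKO tumors 74.5, 57.2, 53.1 and 50.9 CPM, and the TKO tumors 61, 112, 98.5 and 46.9 CPM. DKO 1, TKO 2 and TKO 3 were above all controls, and DKO 4 and TKO 4 below all of them. The log2 fold change was 0.36 in TKO (-0.17 to 0.90, adjusted p = 0.491 by edgeR), -0.07 in DKO (-0.60 to 0.46, adjusted p = 0.886) and 0.43 in TKO against DKO (-0.10 to 0.97, adjusted p = 0.61).

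Klb, without which FGFR4 does not respond to FGF15, was at 45.7, 82.7, 70.3 and 31 CPM in the controls, at 42.7, 21.2, 41.6 and 75 CPM in DKO and at 24.5, 56, 53.9 and 33.1 CPM in TKO. The groups overlapped, and 2 of the 8 tumors, DKO 2 and TKO 1, lay below every control. For Klb the log2 fold change was -0.34 in DKO (-1.21 to 0.52, adjusted p = 0.632 by edgeR) and -0.45 in TKO (-1.32 to 0.41, adjusted p = 0.616). The ratio of Klb to Fgfr4 per length was 0.953 ± 0.355 in the controls, 0.82 ± 0.491 in DKO and 0.553 ± 0.13 in TKO, with ranges of 0.485 to 1.33 and 0.413 to 0.724 in controls and TKO that overlapped.

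Fgfr2, whose isoforms bind FGF7 and FGF10 or FGF1 and FGF2, had the widest range of the set. It was at 29, 36.8, 38.8 and 52.1 CPM in the controls, at 59.6, 17.5, 43.4 and 2.3 CPM in DKO and at 33, 39.7, 42 and 6.71 CPM in TKO. DKO 4 and TKO 4 thus held far less Fgfr2 than any control, DKO 2 held less as well, and the other 5 tumors lay between 33 and 59.6 CPM. Its log2 fold change was -0.35 in DKO (-1.90 to 1.19, adjusted p = 0.797 by edgeR) and -0.37 in TKO (-1.91 to 1.18, adjusted p = 0.848). Without DKO 4 and TKO 4 together, an alternative added after the data were seen, it was 0.03 and -0.05. These are the libraries with the least Cps1. The summed level of 8 hepatocyte markers, most of it Alb, was 138000 CPM in DKO 4 and 51800 CPM in TKO 4. It was 91900 to 146000 CPM in the controls and 97900 to 338000 CPM in the other tumors. In DKO 4, Hnf4a (837 CPM) and Ahsg (11200 CPM) were above every control, whereas Cps1 and Asgr1 (433 CPM) were below every control. Alb, Ttr, Apoa1 and Fgb were within the range of the controls there. In TKO 4 every marker of the 8 but Ttr was below every control. The part of hepatocyte content or state in the Fgfr2 values was not tested. Egfr too was lowest in DKO 4 and TKO 4 within their groups (208 and 96 CPM), whereas Met was at 115 and 95.6 CPM there, within the range of the other tumors of each group or above it.

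Fgfr3 was at 21.8 to 29.5 CPM in the controls and 21.9 to 28.1 CPM in DKO, and at 35.5, 47.3, 23 and 20.4 CPM in TKO. TKO 1 and TKO 2 were above all controls and TKO 4 below all of them. Its log2 fold change was 0.28 in TKO (-0.22 to 0.78, adjusted p = 0.588 by edgeR) and -0.08 in DKO (-0.58 to 0.42, adjusted p = 0.857). Fgfr1, the receptor through which FGF21 acts with beta-Klotho in fat, had group means of 7.26 ± 3.13 CPM in the controls, 5.07 ± 1.92 in DKO and 5.83 ± 2.93 in TKO. Control 3, at 2.78 CPM, was as low as the lowest tumors, and the log2 fold change was -0.51 (-1.48 to 0.46) in DKO and -0.32 (-1.28 to 0.65) in TKO, with adjusted p = 0.514 and 0.777 by edgeR.

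The 10 genes did not vary as a block. Across the 12 libraries, the pair with the highest Pearson correlation of log2 CPM was Erbb3 with Fgfr4 (r = 0.73), followed by Erbb2 with Hgf (0.71, at low counts of Erbb2) and Hgf with Fgfr2 (0.694), and the lowest was Erbb2 with Met (-0.509). These libraries share their groups and scaling, so the values are a description. Among all tested genes, those most like Hgf were Bmp5 (r = 0.97), Dcn (0.95) and Pde7b (0.949), with 0.954, 0.962 and 0.916 after group means were subtracted. Those most like Fgfr2 were Cyp2f2 (0.974), Gls2 (0.968) and Uroc1 (0.966), a cytochrome P450, the liver glutaminase and an enzyme of histidine breakdown, and Cyp2f2 kept r = 0.972 after group means were subtracted. For Egfr they included Pram1 (0.906) and Btg1 (0.868), and for Met Usp32 (0.888) and Hipk3 (0.865).

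For the remaining genes the closest patterns were as follows. Erbb3 was most like Tigd5 (0.934), Xrcc1 (0.926) and Bcl7c (0.917), and Erbb2 most like Fbln5 (0.92), Sema3c (0.896) and Dpt (0.882). The genes most like Fgfr4 included Ndst2 (0.933) and Abca17 (0.929), and Klb was most like Rps6kb2 (0.907), Ring1 (0.876) and Commd5 (0.871). Fgfr3 was most like Furin (0.874), Actn1 (0.871) and Gprin3 (0.869), and Fgfr1 most like Gpr153 (0.894), Spink5 (0.799) and Vcan (0.792).

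The wider pathway was examined through 90 ligands, activators, adaptors, feedback inhibitors and response genes, of which 70 passed the filter. In DKO against control, 2 of the 70 rose (Dusp6 and Jun) and 1 fell (Nr1h4), beside 1.41% and 1.01% of all tested genes. These 3 also passed over all tumors, where the shares of all genes were 1.25% and 1.22%. In TKO against control and in TKO against DKO the count was 0 of 70 by edgeR, with 16 and 10 at an unadjusted p under 0.05, beside 16.3% and 9% of all genes. DESeq2 called 16 of the 70 in DKO, 7 in TKO and 0 between the tumor genotypes, beside 10.4%, 3.49% and 0.398% of all genes it tested. The median log2 fold change of the 70 was 0.18 in DKO and 0.11 in TKO.

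**Figure D5:**
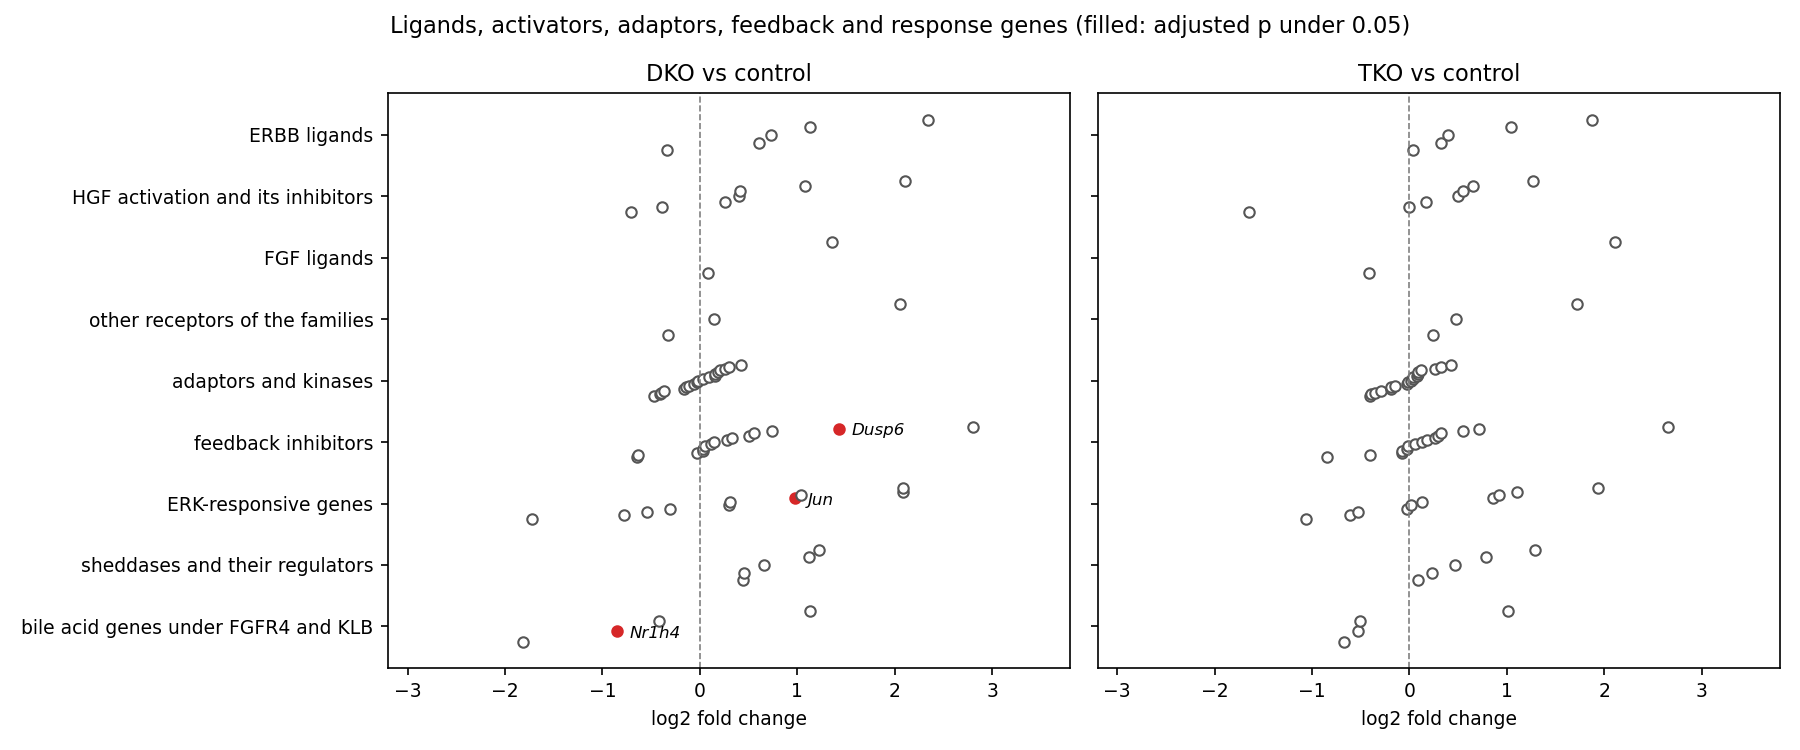
Log2 fold changes of the 70 tested pathway genes in DKO (left) and TKO (right) against control, grouped by role, with filled red points for an adjusted p under 0.05 by edgeR. Dusp6 and Jun lie to the right and Nr1h4 to the left in DKO, and no point is filled in TKO.

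Of the genes that passed, Dusp6 encodes the phosphatase that switches off ERK and is itself induced by ERK signaling. It was at 40.8, 18.8, 41 and 33 CPM in the controls, at 76.8, 109, 72.9 and 103 CPM in DKO and at 45.9, 56.7, 36.2 and 79.9 CPM in TKO. All 4 DKO tumors and 3 of the 4 TKO tumors were above every control. Dusp6 rose by 1.43 on the log2 scale in DKO (SE 0.282, adjusted p = 0.0416 by edgeR) and by 1.07 over all tumors (adjusted p = 0.0479), and its change in TKO was 0.71 (0.10 to 1.31, adjusted p = 0.239). The call in DKO held in 5 of the 12 fits that left out 1 library (control 1, DKO 3, TKO 2, TKO 3 or TKO 4) and in none of the other 7, and the change ranged from 1.24 to 1.55 over them, with adjusted p from 0.023 to 0.132. The call over all tumors held in 2 of 12, those without DKO 3 or TKO 3 (adjusted p up to 0.146).

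Jun, a subunit of the AP-1 transcription factor and an early gene of growth factor signaling, was at 9.22 to 15.9 CPM in the controls, 14.6 to 28.5 CPM in DKO and 16.7 to 25.7 CPM in TKO. It rose by 0.98 in DKO (SE 0.235, adjusted p = 0.0498 by edgeR) and by 0.92 over all tumors (adjusted p = 0.0454), with 7 of 8 tumors above every control. The call for Jun in DKO held in 2 of the 12 fits that left out 1 library, those without control 1 or TKO 3 (adjusted p up to 0.151), and over all tumors in 2 of 12, those without TKO 3 or TKO 4 (up to 0.164). Nr1h4 encodes FXR, the nuclear receptor that senses bile acids and acts beside FGFR4 to lower their synthesis. It was at 109, 146, 148 and 118 CPM in the controls and at 53.9 to 107 CPM in the 8 tumors, all below the controls. It fell by 0.85 in DKO (SE 0.179, adjusted p = 0.0425 by edgeR) and by 0.68 over all tumors (adjusted p = 0.0444), and the call in DKO held in 5 of 12 fits without 1 library (control 1, DKO 3, TKO 2, TKO 3 or TKO 4, adjusted p up to 0.134) and over all tumors in 2 of 12 (DKO 3 or TKO 3, up to 0.161).

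Among the ligands of the EGF receptor family, 0 of the 5 tested members of an 11-gene list passed, with 3 in DKO and 1 in TKO at an unadjusted p under 0.05 (24% and 16.3% of all genes) and 1 in DKO by DESeq2 (10.4%). Nrg1, a ligand of ERBB3, was at 0.222 to 1.32 CPM in the controls, 1.42 to 4.98 CPM in DKO and 0.614 to 3.95 CPM in TKO, and its log2 fold change was 2.34 in DKO (0.89 to 3.8, adjusted p = 0.0746 by edgeR) and 1.87 in TKO (adjusted p = 0.205). The Nrg1 counts were at most 70 per library. Tgfa, the EGFR ligand made by hepatocytes, was at 22.4 to 28.8 CPM in the controls and highest in DKO 4 (57.7 CPM) and TKO 4 (43.5 CPM), the tumors with the least Egfr in their groups (log2 fold change 0.61 in DKO, adjusted p = 0.122). Hbegf had values of 1.13 in DKO and 1.04 in TKO, with adjusted p = 0.263 and 0.408. Of the sheddases that release such ligands and their regulators, 0 of 5 passed by edgeR, with 5 in DKO and 2 in TKO at an unadjusted p under 0.05, beside 24% and 16.3% of all genes. DESeq2 called 3 of the 5 in DKO and 1 in TKO, beside 10.4% and 3.49% of all genes. All 5 had a fitted change above 0 in both DKO and TKO, with the lowest adjusted p for Timp3 in DKO (1.12, adjusted p = 0.0656) and for Rhbdf1 in TKO (1.29, adjusted p = 0.146). The list mixes sheddases with their regulators, so this shared direction is no measure of ligand release, which was not tested.

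Of the proteases that activate HGF and their inhibitors, 0 of 7 tested genes passed by edgeR, with 2 in DKO and 1 in TKO at an unadjusted p under 0.05 (24% and 16.3% of all genes), and DESeq2 called 1 in TKO (3.49%). Plau, which encodes urokinase, had a log2 fold change of 1.08 in DKO (adjusted p = 0.1 by edgeR) and 0.55 in TKO (adjusted p = 0.481). Plat, the tissue plasminogen activator, had values of 2.10 and 1.27 (adjusted p = 0.139 and 0.459), with a single high tumor in each group. It was at 25.3 CPM in DKO 2 and 3.68 to 3.95 CPM in the other DKO tumors, against 1.56 to 2.56 CPM in the controls. In TKO 4 it was at 13.9 CPM, and in the other TKO tumors at 1.76 to 3.2 CPM. Serpina5, an inhibitor of such proteases, was at 0.298 to 0.614 CPM in TKO and 1.04 to 1.63 CPM in the controls, with a log2 fold change of -1.65 in TKO (adjusted p = 0.137).

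Only 2 of 10 FGF ligand genes were tested. Fgf21, the fasting and stress hormone of the liver that needs beta-Klotho, was at 1.11 to 2.95 CPM in the controls, above them in 3 of 4 DKO tumors (6.49 to 7.31 CPM, with 0.769 CPM in DKO 3) and at 2.76 to 18.8 CPM in TKO. Its log2 fold change was 1.36 in DKO (adjusted p = 0.232 by edgeR) and 2.11 in TKO (0.67 to 3.55, adjusted p = 0.169), and DESeq2 gave adjusted p = 0.0357 in TKO. Fgf1 was at 35.1 to 99 CPM with no call (0.08 in DKO and -0.42 in TKO, adjusted p = 0.854 and 0.374). Of 4 genes of bile acid synthesis and its control, 1 passed in DKO (Nr1h4, above, which acts beside FGFR4) and 0 in TKO, beside 2.42% and 0.0864% of all genes. At an unadjusted p under 0.05 there were 3 and 2 of them, beside 24% and 16.3% of all genes. Cyp7a1, the rate-limiting enzyme of bile acid synthesis, was at 327 to 580 CPM in the controls and from 41.7 CPM in DKO 1 to 731 CPM in DKO 4 and 732 CPM in TKO 4 (log2 fold change -0.42 in DKO and -0.53 in TKO, adjusted p = 0.771 and 0.783). Cyp8b1, which sets the share of cholic acid, was at 92.8 to 792 CPM in the controls, 31.6 to 163 CPM in DKO and 57.3 to 480 CPM in TKO (-1.82 and -0.67, adjusted p = 0.205 and 0.731). Nr0b2, the repressor SHP, was at 5.53 to 13.5 CPM in the controls and 11.1 to 40.2 CPM in the tumors (1.13 and 1.01, adjusted p = 0.157 and 0.301). Of 3 further tested genes of these families, the receptors Mst1r and Fgfrl1 and the Mst1r ligand Mst1, 0 passed by either tool, and Mst1r, the receptor closest to MET, was at 0.203 to 1.35 CPM in the controls and 0.614 to 7.51 CPM in the tumors (2.05 in DKO, adjusted p = 0.16). The values of Cyp7a1 in DKO 4 and TKO 4 go with the low Fgfr2, Egfr and Cps1 of these libraries, and their relation was not tested.

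Downstream, 0 of 19 tested adaptors and kinases passed in any comparison by edgeR, with 5 in DKO and 4 in TKO at an unadjusted p under 0.05 (24% and 16.3% of all genes), while DESeq2 called 3 in DKO and 1 in TKO (10.4% and 3.49%). Sos1 and Sos2, the exchange factors that load RAS, were below every control in all 8 tumors, with log2 fold changes of -0.40 and -0.41 in DKO and -0.41 and -0.39 in TKO. Over all tumors their adjusted p was 0.0552 and 0.06 by edgeR and 0.00886 and 0.015 by DESeq2. Map2k2, an ERK-activating kinase, had a value of -0.47 in DKO (adjusted p = 0.0755) and -0.29 in TKO (adjusted p = 0.307). Of 15 feedback inhibitors, 1 passed as higher in DKO (Dusp6), beside 1.41% of all tested genes. DESeq2 called 3 higher and 1 lower there, beside 10.4% of all genes called in either direction. The fitted change was above 0 for 12 and below 0 for 3 in DKO, and above 0 for 9 and below 0 for 6 in TKO. Their medians were 0.15 and 0.13, where the median over all tested genes was 0.02 in both. Dusp5, a nuclear ERK phosphatase, was at 0.519 to 1.1 CPM in the controls, 3.08 to 9.89 CPM in DKO and 0.522 to 17.3 CPM in TKO (log2 fold change 2.8 in DKO and 2.65 in TKO, adjusted p = 0.0917 and 0.19 by edgeR). Among these inhibitors Errfi1, the cytoplasmic inhibitor of EGFR, was the most abundant, at 1090 to 1430 CPM in the controls and 338 to 1040 CPM in the tumors. All 8 tumors were below every control for Errfi1, but the test did not call it (log2 fold change -0.65 in DKO and -0.85 in TKO, adjusted p = 0.242 and 0.227). In all tumors against control, 4 of the 70 pathway genes lay wholly below the controls (Sos1, Sos2, Errfi1 and Nr1h4), beside 1.46% of all tested genes.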

How the data were processed

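Poly(A) RNA of 12 livers and tumors was sequenced on a SOLiD instrument. The authors mapped the reads to mm9 with BWA and deposited raw read counts per Entrez gene from featureCounts, without normalization. Versions of these tools, how strand was handled and how multi-mapped reads were counted are not given in the sources used here. Columns were matched to samples through the labels. Of the Entrez IDs, 24191 had a symbol, and these took 99.4% of the counts.

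Counts were analyzed with edgeR 4.0.16 in R 4.3.3: TMM scaling, the filterByExpr filter, 1 model with a mean for each of the 3 groups over all 12 libraries and its quasi-likelihood test, with p-values adjusted by Benjamini-Hochberg over the 13882 genes tested, at 0.05. All tumors against control is the mean of DKO and TKO against control. CPM uses the TMM-scaled library size, and RPKM divides it by the union of exons in GENCODE vM1 (NCBIM37, the assembly of mm9). The SE is the log2 fold change divided by the square root of the F statistic. Correlations used log2 CPM with a prior count of 2. No pair of libraries agreed within sampling noise. The steps were tested on simulated data. Intervals cover 95%.

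The alternatives were DESeq2 1.42.0, its size factors in edgeR, total counts as the scaling, the compared groups alone, a filter of 10 counts in each library or none, the replicate number as a block, sex-linked genes as a covariate, limma 3.58.1 voom with weights on samples, and leaving out each library. Leaving out DKO 4 and TKO 4 together was added after the data were seen. The genes and lists were chosen with earlier results of these data known. Genes named beside the 10 are those of each list that passed, or otherwise up to 3 with the lowest p over all tumors, and for each of the 10 the 3 genes with the highest correlation, some of which are not reported here. Cyp7a1, Cyp8b1, Nr0b2, Dusp5, Lrat, Errfi1, Erbb4 and Cps1 were singled out with their values known. The 8 hepatocyte markers were named in full, also with their values known.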

Additional observations from a re-analysis of the deposited data

Results flagged for a closer look

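Hgf in TKO 3, at 11.2 CPM, stood apart from the other 3 TKO tumors, which lay between 3.74 and 4.12 CPM. Its gap to the nearest of them was 0.949 of the range of the group, above Dixon's 95% critical value for 4 samples. It was the only such sample in 30 groups examined (10 genes in 3 groups), where chance gives about 1 in 20. The stellate cell and fibroblast markers summed to 561 CPM in that library against 249 to 361 CPM in the other TKO tumors. The endothelial markers summed to 323 CPM there against 164 to 192 CPM, the macrophage markers to 562 against 109 to 337 CPM, and the lymphocyte and neutrophil markers to 23.9 against 13.3 to 14.3 CPM. The part of any of these cell types in the value was not tested.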

How the results depend on the processing

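At total counts of 9165812 to 16424973, Erbb2 had 14 to 44 counts and Hgf in DKO 4 had 20 counts, and the spread between the 4 libraries per group was large for Egfr, Hgf and Fgfr2. Of the refitted values of the 10 genes, 802 kept their direction and side of the threshold, 4 passed the threshold and 74 changed sign, all 74 for changes that did not pass. The 4 were Hgf in DKO and over all tumors, without DKO 3 and with voom and quality weights. The cause of the differences between settings was not tested.

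The number of genes called in DKO, TKO, TKO against DKO and all tumors was 336, 12, 0 and 344, and with DESeq2 1518, 507, 56 and 1422. In DKO it was 59 with total counts, 759 with the compared groups alone, 1804 with voom, 6 with the sex-linked covariate and 145 without DKO 4 and TKO 4 together. In TKO it was 22 without a filter, 97 with voom and 5 with the covariate. Over all tumors it was 61 with total counts, 1813 with voom, 4 with the covariate and 168 without DKO 4 and TKO 4. The covariate is the mean log2 level of Y-linked genes less that of Xist. All 12 libraries had the male pattern, so it does not separate the sexes. Xist had 1 to 6 counts per library. The Y-linked gene Kdm5d was at 1.11 to 2.29 CPM in DKO 1, DKO 2 and TKO 1, and at 9.59 to 16.5 CPM in the controls. Why fewer genes were called with this covariate was not tested. Pathway genes called beside the 10 numbered 3 in DKO and 3 over all tumors, and 16, 7 and 13 in DKO, TKO and all tumors with DESeq2, 18 and 13 in DKO and all tumors with voom, 10 in DKO with the compared groups alone, 0 with total counts or the covariate, and 1 over all tumors without DKO 4 and TKO 4. Of the 10 genes, voom called 1 in DKO and 1 over all tumors, Hgf (adjusted p = 0.0472 and 0.0303, where the settings other than leaving out a library gave 0.0472 to 0.405 and 0.0303 to 0.304).

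When each library was left out in turn, the genes called ranged from 0 to 651 in DKO, 0 to 231 in TKO, 0 to 0 in TKO against DKO and 0 to 1019 over all tumors, with 0 in all of them without control 2 or control 3, 5 to 7 in DKO without control 4, DKO 1, DKO 2 or DKO 4, 0 over all tumors without TKO 1 or TKO 2, and 651, 231 and 1019 without TKO 3. Of the 10 genes 0 to 1 were called in DKO and over all tumors, and of the pathway genes 0 to 6 in DKO, 0 to 1 in TKO and 0 to 10 over all tumors.

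Of 12 pairs of same-numbered libraries, 5 had a correlation of their deviations over 0.1 (range -0.174 to 0.37). The highest values between groups were DKO 3 with TKO 3 (0.37) and DKO 4 with TKO 4 (0.342). The next was a pair with different numbers, DKO 1 with TKO 2 (0.322). Such values, from deviations around means of 4 libraries, cannot show whether the numbers pair the samples, which were treated as unpaired. With the replicate number as a block, 509 genes were called in DKO and 1 in TKO, and under this block the sign changed for Erbb2 in TKO (-0.01), Hgf and Fgfr2 in TKO against DKO (0.26 and 0.16), and Erbb3 and Egfr over all tumors (0.01 and -0.03).

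Signs also changed as follows, as log2 fold changes. Erbb2 in TKO was 0 with DESeq2, -0.01 with DESeq2's size factors and -0.04 without DKO 4 and TKO 4. With total counts, Hgf and Fgfr2 in TKO against DKO were 0.02 and 0.09, and Erbb2 and Erbb3 over all tumors 0.07 and 0.09. Hgf in TKO against DKO was 0 with the compared groups alone. With voom, TKO against DKO gave 0.24 for Hgf, 0.27 for Fgfr2, 0.09 for Klb and 0.01 for Jun, Fgfr1 was 0.01 in DKO, 0.07 in TKO and 0.04 over all tumors, and Erbb2 was 0.06 in DKO and 0.11 over all tumors. With the covariate, Egfr over all tumors was -0.07, and Fgfr1 and Fgfr2 in TKO against DKO were -0.05 and 0.28. Without DKO 4 and TKO 4 together, DKO gave 0.12 for Erbb2 and 0.03 for Fgfr2, TKO gave 0.05 for Egfr, all tumors gave 0.04 for Erbb2 and 0.05 for Erbb3, and TKO against DKO gave -0.16 for Erbb2, -0.02 for Fgfr1 and 0.33 for Klb.

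Leaving out single libraries changed the sign of Egfr in DKO (range -0.17 to 0.86), in TKO (-0.49 to 0.25) and over all tumors (-0.21 to 0.55), of Erbb2 in DKO (-0.47 to 0.12), in TKO (-0.13 to 0.15), in TKO against DKO (-0.11 to 0.48) and over all tumors (-0.23 to 0.10), and of Erbb3 in DKO (-0.35 to 0.01), in TKO (-0.05 to 0.40) and over all tumors (-0.16 to 0.20). It did so too for Fgfr2 in DKO (-0.91 to 0.04), Fgfr3 over all tumors (-0.03 to 0.17) and, in TKO against DKO, Hgf (-0.54 to 1.15), Fgfr1 (-0.08 to 0.46), Fgfr2 (-0.40 to 0.54) and Klb (-0.34 to 0.25).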

Other observations

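Outside the growth factor pathway, Slco1a1, an organic anion transporter that male livers express more than female livers, fell by 1.11 on the log2 scale over all tumors (SE 0.209, adjusted p = 0.0405 by edgeR's quasi-likelihood test), with 8 of 8 tumors below every control. It was the only one of 6 male-biased liver genes that passed there, beside 1.22% of all tested genes called lower. The call held in 4 of the 12 fits that left out 1 library, those without DKO 3, DKO 4, TKO 3 or TKO 4 (adjusted p from 0.0128 to 0.146). The change of Slco1a1 was -0.95 in DKO (adjusted p = 0.062) and -1.27 in TKO (adjusted p = 0.0908). All 6 male-biased genes had fitted changes below 0 in DKO and over all tumors, and 5 in TKO (medians -1.63, -1.2 and -0.76). At an unadjusted p under 0.05, edgeR listed 4, 3 and 1 of them, beside 24%, 23% and 16.3% of all genes. In DKO 4 of the 6 lay wholly below the controls, where 16.2% of all genes did not overlap. DESeq2 called 3, 1 and 1, beside 10.4%, 9.49% and 3.49% of all genes. Of 7 female-biased liver genes, 0 passed in any comparison by edgeR or DESeq2.

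Of the cell type markers, 0 of 8 endothelial, 0 of 6 macrophage, 0 of 5 biliary and 0 of 7 lymphocyte and neutrophil genes passed in DKO, TKO or all tumors by edgeR. DESeq2 called 2 endothelial genes higher in DKO and 2 over all tumors, beside 10.4% and 9.49% of all genes. It called 0 of them in TKO and 0 of the other lists named here. The 6 macrophage genes all had fitted changes below 0 in both tumor groups, with medians of -0.94 in DKO and -0.29 in TKO, and their summed level ranged from 191 to 514 CPM in the controls, 38.1 to 416 in DKO and 109 to 562 in TKO. The 8 endothelial genes had no shared direction in DKO, with 4 fitted changes above 0 and 4 below 0 (median 0.05). In TKO, 7 were above 0 and 1 below (median 0.45). Pecam1, the endothelial adhesion molecule, had log2 fold changes of 1.24 in DKO and 0.93 in TKO (adjusted p = 0.0693 and 0.219 by edgeR). It was at 69.5 CPM in DKO 4 and 21.8 to 30.1 CPM in the other DKO tumors. Wnt2 was at 0.177 to 1.58 CPM in DKO, below every control (1.97 to 4.03 CPM).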
